A study of Mus musculus with 6 samples.

Results

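The genes described here are 10 members of the mammalian circadian clock, namely Arntl (also called Bmal1), Per1, Per2, Per3, Cry1, Nr1d1, Dbp, Tef, Hlf and Nfil3, read from kidney RNA of newborn mice. They were chosen by name, with earlier results of these data known, and matched through the RefSeq accession of each array probe. All 10 had at least 1 probe among the genes on the array. A total of 21203 genes passed a filter on dim probes and were tested, and these included 8 of the 10. Per3 and Nr1d1 did not pass and are given without a test.

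RNA from 6 neonates, collected about 6 hours after birth, was read in 1 colour, Cy3, on Agilent arrays, 1 array per neonate. The arrays comprised 3 labelled USP10 KO and 3 labelled USP10 WT, all labelled male. Usp10 encodes a deubiquitinating enzyme, and the sources used here give neither the allele or the way it was made, nor the strain, nor the hour of the day at birth or collection. All groups share the tissue, the age and the absence of any stated treatment.

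In the clock, the activators ARNTL and CLOCK bind E-box elements and switch on the Per and Cry genes, whose proteins return to block their own activators. The same activators drive Nr1d1, a nuclear receptor that represses Arntl, and Dbp, which with Tef and Hlf forms the PAR bZIP family of activators at D-box elements. Nfil3 binds the same D-boxes as a repressor. In tissues of adult mice Arntl, Nfil3 and Cry1 peak from late night to morning, while Nr1d1, Dbp, Tef, Hlf and the Per genes peak from midday to evening. In the adult kidney the clock is known to time sodium and water transport, and Per1 is a target of glucocorticoids as well as of the clock.

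The promoter stretches below are shown because the E-box, the D-box and the ROR/REV-ERB element are sites through which these genes are known to regulate each other. The cAMP and glucocorticoid elements, which are not such sites, were searched as well. The sequences are from RefSeq, build GRCm38.p6, 5′ to 3′ on the strand of the gene, with the matched motif in capitals. Windows of 250 bases before to 50 bases after a transcription start were held for 9 of the 10 genes, 12 windows in all. The motifs searched on both strands were the E-box CACGTG, the D-box TTATGTAA or TTACGTAA, the cAMP element (CRE) TGACGTCA, and the consensus ROR/REV-ERB element (RRE) and glucocorticoid element (GRE), none of which overlapped another in these windows.
Per1 E-box, chr11:69098756-69098815, plus strand: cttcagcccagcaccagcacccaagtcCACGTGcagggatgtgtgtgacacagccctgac
Cry1 E-box, chr10:85185082-85185141, minus strand: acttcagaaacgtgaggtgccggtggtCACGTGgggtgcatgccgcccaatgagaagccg
Tef E-box, first start, chr15:81802519-81802578, plus strand: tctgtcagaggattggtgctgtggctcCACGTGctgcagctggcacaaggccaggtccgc
Tef E-box, second start, chr15:81811249-81811308, plus strand: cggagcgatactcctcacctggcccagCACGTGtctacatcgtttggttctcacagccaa
Per3 D-boxes, chr4:151044789-151044897, minus strand: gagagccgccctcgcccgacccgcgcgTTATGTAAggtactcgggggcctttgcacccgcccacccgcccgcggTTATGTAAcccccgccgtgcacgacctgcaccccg
Hlf CRE, chr11:90390918-90390953, minus strand: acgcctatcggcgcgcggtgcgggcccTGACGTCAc
Arntl RRE, chr7:113207528-113207557, plus strand: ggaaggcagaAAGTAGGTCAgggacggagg

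The E-box of Per1 began at position -166, that of Cry1 at -60 and those of Tef at -127 and -138, counted from the annotated start. Per3 carried a pair of D-boxes at -205 and -158, and the RRE of Arntl began at 28, inside the transcript. Among all 32851 promoter windows an E-box was present in 7.15%, a D-box in 1.06%, an RRE in 0.435%, a CRE in 1.79% and a GRE in 0.0487%. A match of letters is a description and not a bound site. In the windows of Dbp, Nr1d1 and Nfil3, in the second window of Per1 and in the first of Arntl these letters were not found.

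On the 6 arrays 64.4% to 73.9% of spots passed the well-above-background flag and no spot was saturated. With 3 arrays a group, the precision of each value is limited by their number. By the scan time in the file headers the arrays fell into 2 scans. KO replicates 1 and 2 and WT replicates 2 and 3 shared scan 1, and KO replicate 3 and WT replicate 1 shared scan 2. The single Usp10 probe read 3.64, 3.37 and 3.56 on the arrays labelled KO and 3.01, 3.12 and 2.95 on those labelled WT, as log2 signal minus the array's 75th percentile, the scale of all levels here. The targeted transcript thus went against the labels (limma adjusted p = 0.414), though a probe outside the deleted part would check nothing, and directions below rest on the labels. Of the arrays labelled WT, replicate 2 had no Y-linked signal well above background for Ddx3y, Uty or Eif2s3y. It had the highest Xist of the 6 arrays (0.43), a pattern that goes against its male label. Replicate 1 gave Y-linked signal together with Xist (-0.62). These Xist values are from the brighter of its probes. A second, dimmer Xist probe read -3.90 on WT replicate 2, well above background, and -6.04 on WT replicate 1, not well above it. On the other arrays that probe read -8.06 to -7.05. WT replicate 3 alone of its group had Y-linked signal and no Xist well above background, as had the arrays labelled KO. Values against WT replicate 3 alone are therefore given too, on the assumption that its spread is that of the arrays labelled KO.

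Within the clock, Per1, Nfil3, Tef and Hlf stood higher on the arrays labelled KO, with no overlap between the groups, while Arntl, Cry1, Dbp and Per2 overlapped. The folds of the first 4 were 2.80 for Per1, 1.67 for Nfil3, 1.59 for Tef and 1.32 for Hlf. None of the 8 passed an adjusted p of 0.05 in limma (Benjamini-Hochberg over all 21203 genes), where 0.0802% of genes passed. At an unadjusted p under 0.05, 4 of the 8 were higher and 0 lower, against 6.23% and 4.16% of all genes. Groups did not overlap, KO higher, for 4 of the 8 members and for 10.2% of all genes. The 8 were well above background on all 6 arrays, so none was tested only because of its level in 1 group. Their median log2 difference was 0.40, against 0.03 over all genes tested. As the members were chosen with earlier results of these data known, these shares and medians are a description and not a test.

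**Figure D1:**
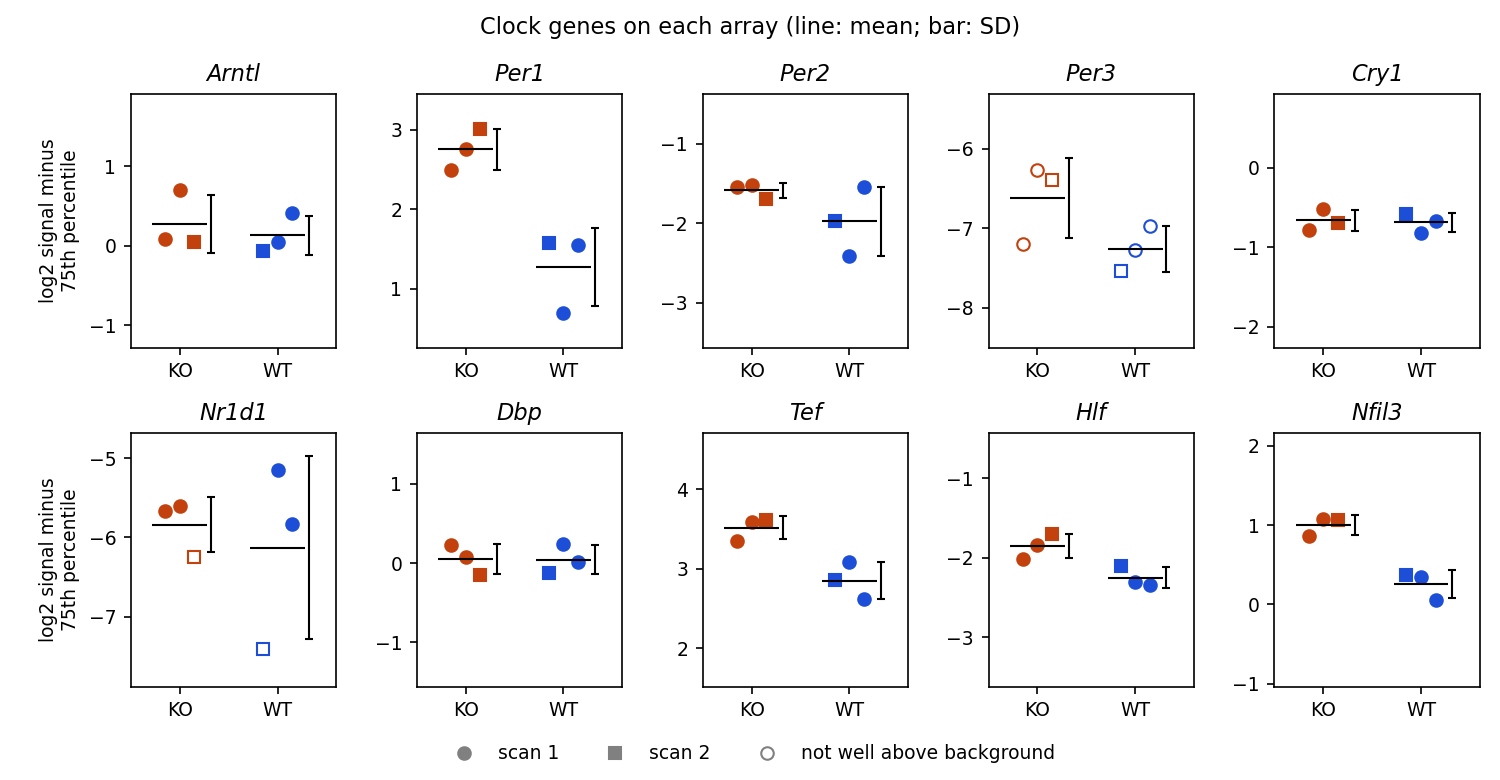
Level of each clock gene on each array, as log2 signal minus the array's 75th percentile (vertical axis, each panel spanning the same number of log2 units), for arrays labelled KO (left) and WT (right). Lines are means and bars SD (n = 3), circles are scan 1, squares scan 2, and open symbols are not well above background. Per1, Nfil3, Tef and Hlf separate the groups, with Per1 at 2.50 to 3.01 on the arrays labelled KO and 0.70 to 1.57 on those labelled WT.

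Among the repressors, Per1, which also answers to glucocorticoids and cAMP, showed the largest difference of the 8 tested members. Its level was 2.50, 2.76 and 3.01 on the arrays labelled KO, against 1.57, 0.70 and 1.55 on the arrays labelled WT. Each array labelled KO lay above each labelled WT, and WT replicate 2, the array without Y-linked signal, was the lowest. The log2 difference was 1.49 ± 0.28 (SE), with a 95% interval of 0.83 to 2.14 (limma adjusted p = 0.164, and 0.0794 with scan as a block). It was 1.51 within scan 1 and 1.45 within scan 2, 1.20 without WT replicate 2 and 1.21 against WT replicate 3 alone. By unadjusted p Per1 stood at place 117 of the genes tested.

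Per2, the other light- and hormone-responsive Per gene, had levels of -1.55, -1.52 and -1.69 on the arrays labelled KO and of -1.97, -2.42 and -1.54 on the arrays labelled WT. The arrays labelled KO lay close together, and WT replicate 3 lay among them while WT replicates 1 and 2 lay below. The log2 difference of 0.39 ± 0.24 (SE) did not pass (limma adjusted p = 0.560), and its 95% interval was -0.17 to 0.95. It was 0.17 without WT replicate 2, 0.61 without WT replicate 3 and -0.04 against WT replicate 3 alone. Taken within each array, which no array scaling affects, Per1 minus Per2 was 4.05, 4.28 and 4.70 on the arrays labelled KO and 3.54, 3.12 and 3.09 on the arrays labelled WT, each higher in KO. The KO minus WT value of this within-array difference was 1.09 on the log2 scale, and it was not tested.

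Per3, a Per gene not needed for the core loop, was not well above background on any of the 6 arrays, with readings between -7.20 and -6.26 on the arrays labelled KO and between -7.55 and -6.97 on the arrays labelled WT. No fold is given for it. Cry1, the slow-acting repressor of ARNTL and CLOCK, read -0.78, -0.52 and -0.69 on the arrays labelled KO and -0.58, -0.82 and -0.67 on the arrays labelled WT. The groups overlapped, with a log2 difference of 0.02 ± 0.16 (SE) and a 95% interval of -0.36 to 0.41 (limma adjusted p = 0.964). The interval thus holds differences of up to 0.41 in size, and its sign turned within scan 2 (-0.11).

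Arntl, the activator without which the clock stops, read 0.09, 0.70 and 0.05 on the arrays labelled KO and -0.06, 0.05 and 0.41 on the arrays labelled WT. KO replicate 2 and WT replicate 3 were the high arrays, 1 in each group, and the other 4 lay between -0.06 and 0.09. The log2 difference was 0.14 ± 0.24 (SE), with a 95% interval of -0.41 to 0.70 (limma adjusted p = 0.826), and it was -0.07 without KO replicate 2, 0.28 without WT replicate 3 and -0.13 against WT replicate 3 alone. Nr1d1, the repressor of Arntl, was dim. It read -5.67, -5.61 and -6.24 on the arrays labelled KO and -7.41, -5.15 and -5.83 on the arrays labelled WT, and was well above background on 2 arrays of each group. The arrays where it was not, KO replicate 3 and WT replicate 1, were the 2 arrays of scan 2, which also had the lowest shares of spots well above background (64.4% and 66.5%). Within scan 1, where it was measured on all arrays, the difference was -0.15 on the log2 scale.

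Of the PAR bZIP outputs, Tef, an activator at D-boxes, separated the groups. It read 3.34, 3.58 and 3.61 on the arrays labelled KO and 2.86, 3.08 and 2.61 on the arrays labelled WT, each array labelled KO above each labelled WT. The log2 difference was 0.66 ± 0.19 (SE), with a 95% interval of 0.23 to 1.10 (limma adjusted p = 0.367), and it was 0.62 within scan 1 and 0.76 within scan 2. Against WT replicate 3 alone it was 0.90.

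Hlf, which shares D-box binding with Tef, read -2.01, -1.83 and -1.70 on the arrays labelled KO and -2.10, -2.30 and -2.34 on the arrays labelled WT. The groups came within 0.1 of each other at KO replicate 1 and WT replicate 1. The log2 difference was 0.40 ± 0.17 (SE), with a 95% interval of 0.0049 to 0.79 (limma adjusted p = 0.477), and 0.40 within each scan. After normexp background correction and quantile normalisation it was 0.25, over 1.5 times smaller.

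Dbp, a PAR bZIP gene with a strong daily rhythm in adult tissues, did not separate the groups. Its brighter probe read 0.23, 0.08 and -0.15 on the arrays labelled KO and -0.13, 0.23 and 0.02 on the arrays labelled WT. The high arrays were KO replicate 1 and WT replicate 2, and the low ones KO replicate 3 and WT replicate 1, which share scan 2. The log2 difference was 0.01 ± 0.18 (SE), with a 95% interval of -0.42 to 0.44 (limma adjusted p = 0.986). A second Dbp probe read 0.10, -0.19 and -0.19 on the arrays labelled KO and -0.21, 0.21 and 0.01 on the arrays labelled WT, a difference of -0.10 on the log2 scale, so the probes differ in sign and not beyond their spread.

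Nfil3, the D-box repressor that is also induced by cytokines and glucocorticoids, read 0.86, 1.07 and 1.07 on the arrays labelled KO and 0.37, 0.35 and 0.06 on the arrays labelled WT. All arrays labelled KO lay above all labelled WT. The log2 difference was 0.74 ± 0.17 (SE), with a 95% interval of 0.34 to 1.14 (limma adjusted p = 0.284, and 0.137 with scan as a block), and 0.76 within scan 1 and 0.70 within scan 2. Against WT replicate 3 alone it was 0.94.

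**Figure D2:**
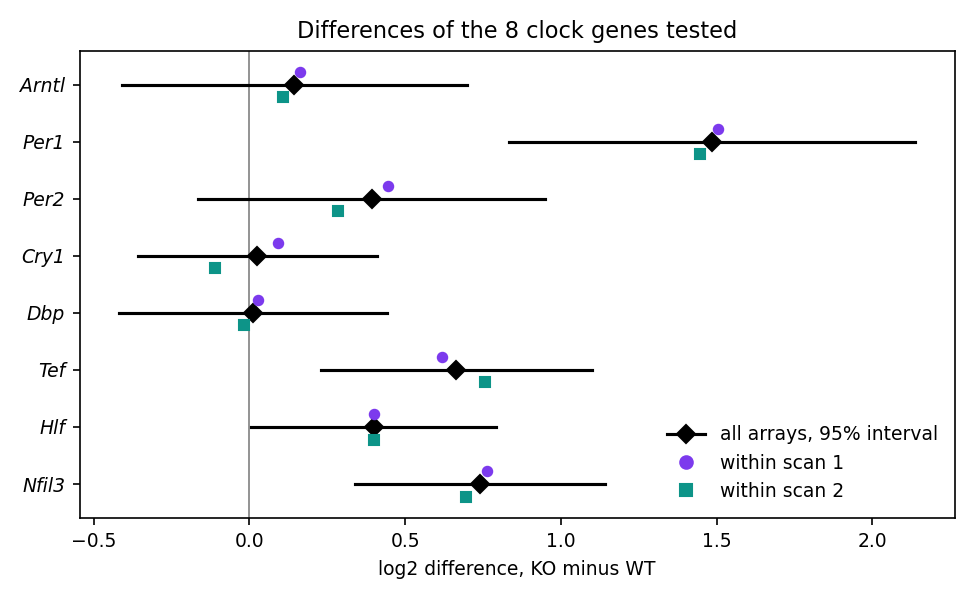
Log2 difference (KO minus WT, horizontal axis) of the 8 clock genes tested. Diamonds with lines are the limma estimate over all arrays and its 95% interval, circles the difference within scan 1 and squares that within scan 2. The intervals of Per1, Tef, Hlf and Nfil3 lie above 0, that of Hlf narrowly (0.0049), and those of Arntl, Per2, Cry1 and Dbp include it.

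Tef, a D-box activator, and Nfil3, the D-box repressor, stood higher together, while Dbp did not. Tef minus Dbp within an array was 3.12, 3.51 and 3.76 on the arrays labelled KO and 2.99, 2.84 and 2.60 on the arrays labelled WT. Nfil3 minus Dbp was 0.63, 1.00 and 1.22 on the arrays labelled KO and 0.50, 0.12 and 0.04 on the arrays labelled WT. Both were higher on each array labelled KO. Nfil3 minus Tef, in contrast, averaged -2.51 ± 0.03 on the arrays labelled KO and -2.59 ± 0.12 on the arrays labelled WT (SD, n = 3 each), a difference of 0.08 on the log2 scale. These comparisons between probes have no test.

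The members were next taken by the phase at which they peak in adult tissues. Over the members that passed the filter, the mean of the evening-phase genes Per1, Per2, Dbp, Tef and Hlf was 0.50, 0.61 and 0.62 on the arrays labelled KO and 0.04, -0.14 and 0.06 on the arrays labelled WT. The mean of the morning-phase genes Arntl, Nfil3 and Cry1 was 0.06, 0.42 and 0.14 on the arrays labelled KO and -0.09, -0.14 and -0.07 on the arrays labelled WT. Both phases stood higher on each array labelled KO, by 0.59 for the evening and 0.30 for the morning genes on the log2 scale. The evening genes differed unevenly, with Per1 at 1.49, Tef at 0.66, Hlf at 0.40, Per2 at 0.39 and Dbp at 0.01. The median of these 5 was 0.40, below their mean of 0.59, to which Per1 gave the largest part. Of the morning genes, Nfil3 differed by 0.74, while Arntl (0.14) and Cry1 (0.02) overlapped between the groups, and the median of the 3 was 0.14.

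Evening minus morning was 0.45, 0.19 and 0.48 on the arrays labelled KO and 0.13, -0.0028 and 0.12 on the arrays labelled WT, a difference of 0.29. With all 10 members, the dim Per3 and Nr1d1 included, evening minus morning averaged -1.57 ± 0.09 on the arrays labelled KO and -1.82 ± 0.16 on the arrays labelled WT (SD, n = 3 each), a difference of 0.25. That value was 0.12 within scan 1 and 0.51 within scan 2, the scan on which Nr1d1 was not measured well above background. It was 0.09 with the median in place of the mean over members, 0.15 against WT replicate 3 alone and 0.16 without WT replicate 1. As the members were chosen with results known, no p is given for these means. As no source gives the time of day at collection, differences in it and between genotypes cannot be told apart.

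**Figure D3:**
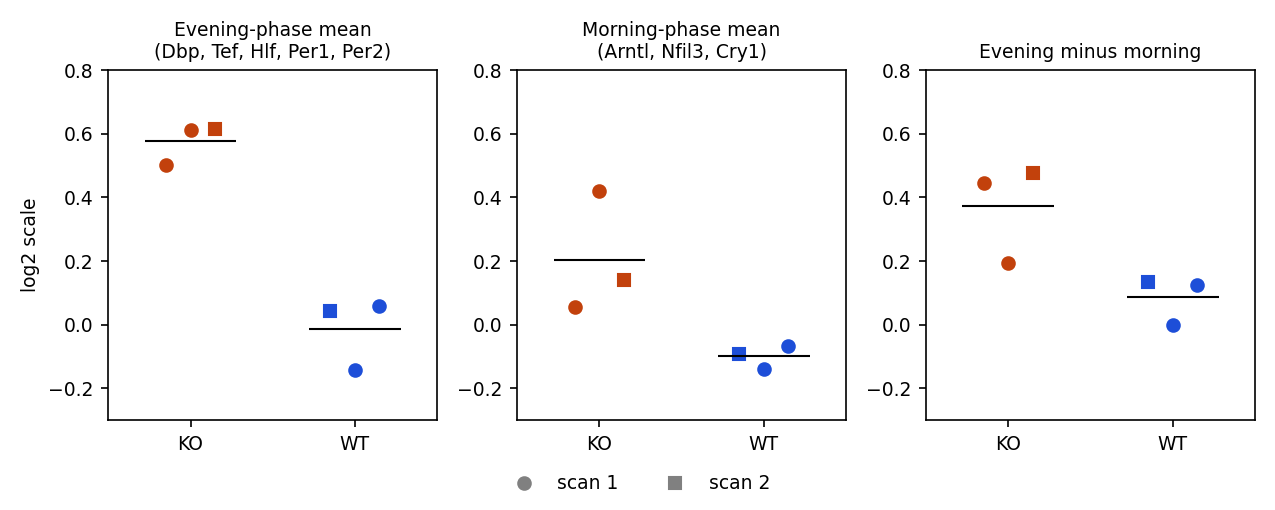
Mean log2 level (vertical axis, relative to each array's 75th percentile) of the evening-phase genes (left), of the morning-phase genes (middle) and their difference (right) on each array labelled KO or WT, over members that passed the filter. Lines are group means, circles scan 1 and squares scan 2. Evening means lie at 0.50 to 0.62 on the arrays labelled KO and at -0.14 to 0.06 on those labelled WT.

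Of 38 other clock genes listed, 33 were tested, and none passed over all genes (limma), with 5 higher and 0 lower at an unadjusted p under 0.05 (6.23% and 4.16% of all genes). A positive difference was found in 21 of the 33 (63.6%) and a negative one in 12, near the 53.7% positive among all genes, and the median was 0.18 against 0.03. Groups did not overlap for 8, all KO higher, against 10.2% of all genes. This list too was chosen with earlier results of these data known, so its shares are a description. Npas2, Bhlhe41, Arntl2, Gys2 and Slc9a3 did not pass the filter. With scan as a block 1 gene passed, Usp2, where 0.274% of all genes did.

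Usp2, a clock-controlled deubiquitinase, read 2.96, 3.24 and 2.91 on the arrays labelled KO and 1.57, 1.97 and 1.52 on the arrays labelled WT. The groups were well apart, with a log2 difference of 1.35 ± 0.19 (SE; limma adjusted p = 0.0769). It passed with scan as a block (0.0499), with an intensity trend (0.0427) and with normexp and the 75th percentile (0.0467), and its adjusted p lay between 0.0427 and 0.516 over all alternatives. Klf15, a transcription factor that both the clock and glucocorticoids drive, read 2.63, 3.49 and 3.74 on the arrays labelled KO and 1.79, 1.26 and 0.63 on the arrays labelled WT. Its log2 difference was 2.06 ± 0.38 (SE; limma adjusted p = 0.152), with no overlap.

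Cry2, the second cryptochrome, read 1.73, 1.82 and 2.35 on the arrays labelled KO and 1.65, 1.38 and 0.58 on the arrays labelled WT. Its groups came within 0.1 of each other, the log2 difference was 0.76 ± 0.31 (SE; limma adjusted p = 0.475), and it was 0.45 without WT replicate 3 and 1.38 against WT replicate 3 alone. Tsc22d3, also known as Gilz and induced by glucocorticoids, differed by 0.94 ± 0.25 (SE; limma adjusted p = 0.352). Of the core partners, Clock, the partner of ARNTL, differed by 0.37 and Ciart, a repressor of the CLOCK and ARNTL pair, by 0.35 on the log2 scale, without overlap but with limma adjusted p of 0.522 and 0.491.

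The smallest p among negative differences belonged to the AMPK subunit gene Prkaa2 (-0.19), the transcription factor gene Klf10 (-0.25), the vasopressin receptor gene Avpr2 (-0.17) and the flavin monooxygenase gene Fmo2 (-0.15), all as log2 differences with overlapping groups and limma adjusted p between 0.692 and 0.810. The Avpr2 spot of KO replicate 1 was removed as an outlier, and with the mean of its probes its difference was -1.29. With only probes well above background on all 6 arrays, the Avpr2 difference was -1.11 (limma unadjusted p = 0.0486, adjusted p = 0.484). Differences of Klf10 and Fmo2 were -0.05 and -0.01 without KO replicate 2.

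**Figure D4:**
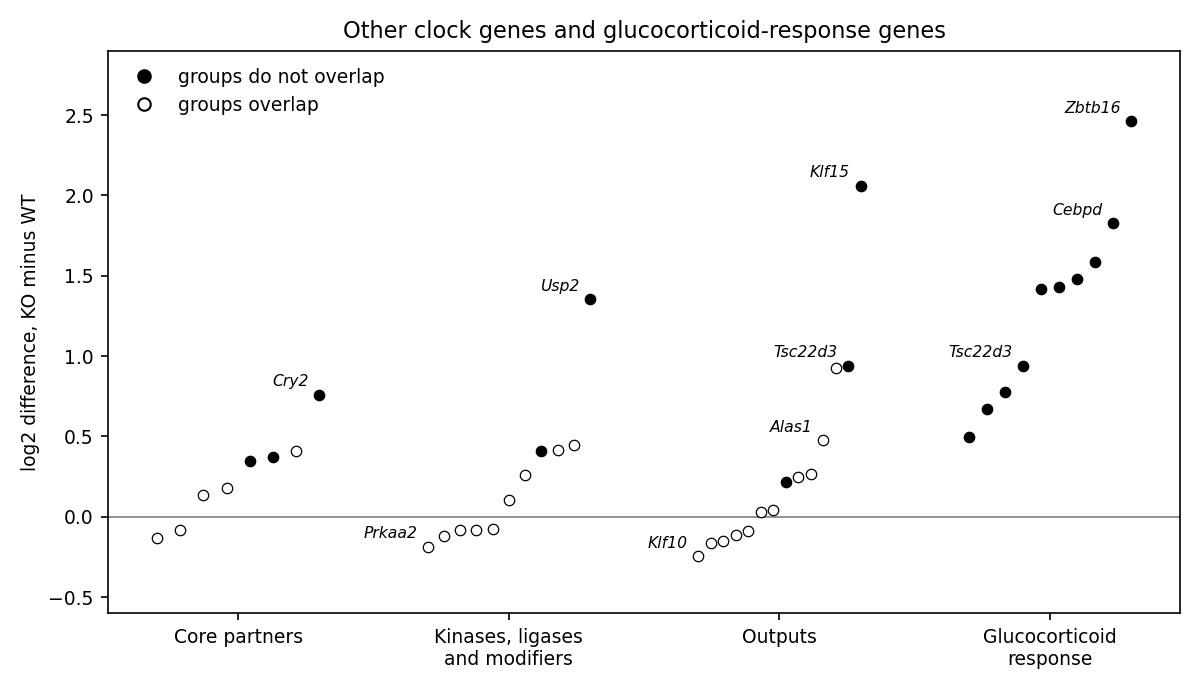
Log2 difference (KO minus WT, vertical axis) of each tested gene on the lists of clock partners, of clock kinases, ubiquitin ligases and other modifiers, of clock outputs and of glucocorticoid-response genes, ordered by size within each list. Filled points have groups that do not overlap. Usp2 (1.35) and Klf15 (2.06) stand highest on the clock lists shown, which leave out the 10 members, and all 10 glucocorticoid-response genes lie above 0.

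Glucocorticoid-response genes stood higher on the same arrays as Per1, Nfil3 and Klf15. On a list of 10 such genes, chosen with results known and sharing Tsc22d3 with the clock list, all 10 had a positive difference without overlap, and the median was 1.42. Over all genes tested, 53.7% had a positive difference, 10.2% did not overlap with KO higher, and the median was 0.03. On the list 2 genes passed, against 17 of all 21203 (0.0802%). Those 2 were Zbtb16, a zinc-finger transcription factor (2.46 ± 0.27, SE; limma adjusted p = 0.0448), and Cebpd, a transcription factor of acute responses (1.83 ± 0.18, SE; limma adjusted p = 0.0448). Neither kept its call with normexp and quantile normalisation, with no filter on dim probes, with a replicate block, against WT replicate 3 alone, or without KO replicate 1, KO replicate 2 or any 1 array labelled WT, settings under which 0 genes passed in limma against 1073 to 2654 at an unadjusted p under 0.05. Nor did either with the mean of probes or with only probes well above background on all 6 arrays, where the 1 gene that passed in limma was lower (2248 and 2055 genes at an unadjusted p under 0.05). With scan as a block, in contrast, both Zbtb16 and Cebpd kept their call, and Klf9 and Errfi1 passed as well. These 4 of the 10 had limma adjusted p of 0.0348 to 0.0360, in a setting where 0.274% of all genes passed. The mean level of the list was 2.58 to 3.00 on the arrays labelled KO and 1.46 to 1.67 on the arrays labelled WT. Whether this has a part in the clock gene values was not tested.

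The kidney markers, among them Umod, Slc12a1, Slc34a1 and Aqp2, were well above background on all arrays for 7 of 7 genes. Their summed level, in multiples of the array's 75th percentile, was 69.0 to 71.8 on the arrays labelled KO and 68.8 to 72.5 on the arrays labelled WT. Such a sum mostly follows its brightest gene, here Cdh16 at 5.39 to 5.62 on the log2 scale. Single log2 differences ran from -0.66 (Six2) to 0.55 (Aqp2), with Slc34a1 at -0.58. Of the 7, 4 were positive and 3 negative, and 0 had an unadjusted p under 0.05 (limma). Adrenal markers, a gland that lies on the kidney, summed to 0.913 to 1.15 on the arrays labelled KO and 0.772 to 0.946 on the arrays labelled WT, with 4 to 7 of 9 well above background. Of these 9, the steroid enzyme genes Cyp21a1 and Hsd3b1, the corticotropin receptor gene Mc2r and the catecholamine enzyme gene Th were well above background on all 6 arrays. Cyp11b1 and Pnmt were so on 4 arrays and Star on 3, and Cyp11a1 and Dbh on none. Hsd3b1 differed by 1.78 ± 0.28 (SE; limma adjusted p = 0.0950). Of the other adrenal markers tested, Mc2r differed by 0.33, Th by 0.07, Cyp21a1 by -0.08 and Cyp11b1 by -0.60 on the log2 scale. The median of the 5 tested was 0.07, and the part of adrenal RNA in the clock gene values was not tested.

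Liver markers summed to 4.20 to 5.46 on the arrays labelled KO and 4.09 to 5.23 on the arrays labelled WT. Brown fat markers summed to 1.00 to 1.30 in KO and 1.06 to 1.35 in WT, and blood markers to 69.8 to 125.6 in KO and 69.6 to 112.3 in WT. Of the 5 liver markers, Alb, Serpina1a, Ttr and Fgb were well above background on all 6 arrays and Apoa1 on none. The sum mostly follows the brighter Serpina1a and Ttr, which differed by 0.43 and -0.66 on the log2 scale. Fgb differed by 0.08 and Alb by -1.59, with Alb at -5.11 on KO replicate 1. The smallest limma adjusted p of these 4 was 0.483. Of the 4 brown fat markers, Cox7a1 was well above background on all 6 arrays and Cidea on 5, and Ucp1 and Adipoq on none. Their sum mostly follows Cox7a1, which differed by -0.09 on the log2 scale. The dim Cidea, at -5.48 to -4.46, differed by -0.59, lower on the arrays labelled KO without overlap (limma unadjusted p = 0.0202, adjusted p = 0.423). In whole-tissue RNA, fewer cells of a type and less RNA per cell cannot be told apart.

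The genes with the profile most like a member over the 6 arrays were sought among 14479 other named genes, by the root mean square difference of the centred log2 levels, a smaller value meaning greater likeness. For Per1 these were Slc10a6 (0.18), Trp53inp1 (0.19), Klf9 (0.20) and Myl1 (0.22), with log2 differences between genotypes of 1.34 to 1.69 and limma adjusted p of 0.0622 to 0.128. Per1 itself differed by 1.49, so genes chosen for likeness to it differ in a like way by the choice. Their differences are no result of their own. For Dbp they were Mettl23, Zfp128, Tpp2 and Tmed6 (0.026 to 0.042), and for Arntl they were Fam171a2, Bicra, Slc9a2 and Fgfr2 (0.033 to 0.059). Klf9 is also on the glucocorticoid list. With 6 arrays such likeness is a description only.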

How the data were processed

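Kidney RNA of 6 neonates was measured on 6 single-colour arrays. The deposited intensity of each spot is the scanner software's linear, background-subtracted processed signal, not normalised between arrays, made by Agilent Feature Extraction 11.0.1.1 per the file headers (9.1 per the submitters' processing notes). The deposited flags for outliers, signal well above background and control spots, a category other than intensity, were used as the authors gave them. Control and outlier spots were left out, log2 was taken, and each array's 75th percentile was subtracted. Accessions named 69.1% of probes through RefSeq (GRCm38.p6), and the array design names mm9, so probes carry no coordinates.

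The filter kept probes flagged well above background throughout either group, and a gene was represented by its brightest kept probe. The test was limma 3.58.1 (R 4.3.3), two-sided and without covariates, its p-values adjusted by Benjamini-Hochberg across the genes kept (threshold 0.05), after a check on simulated data. The series text speaks of independent neonates. Alternatives were other scaling, normexp correction (offset 50, on median signals), other filters, the mean of probes, other variance models, scan and replicate blocks, and leaving out arrays. Named were all members, the 4 smallest p per direction on the clock list, list members that passed, and the nearest profiles of 3 members. Clock and Ciart, and the marker genes named with a value or as above or not above background, were named after their values were seen. The phase contrast over members that passed was added after seeing the data. The members and lists were chosen with earlier results of these data known. A further kidney marker is not reported here and was left out of the marker sums.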

Additional observations from a re-analysis of the deposited data

How the results depend on the processing

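The clock members past the threshold numbered 0 in each of the 18 alternatives, with 3 to 5 members at an unadjusted p under 0.05 (limma). Of 144 values of the members under these alternatives 131 kept their sign, and Per1, Tef, Hlf and Nfil3 did so throughout. Dbp turned to -0.0046 with quantile normalisation, -0.037 with array median scaling and -0.043 with the mean of probes, and without 1 array lay between -0.077 and 0.11 (-0.00033 without KO replicate 2, -0.074 without WT replicate 1, -0.00032 without WT replicate 3). Cry1 turned to -0.024 with array median scaling, and without 1 array lay between -0.050 and 0.084 (-0.039 without WT replicate 2). Arntl lay between -0.066 (without KO replicate 2) and 0.28 without 1 array and was -0.13 against WT replicate 3 alone, where Per2 was -0.042. The cause was not tested. The clock pathway count was 1 in place of 0 with normexp and the 75th percentile, with an intensity trend and robust variance and with scan as a block, the gene being Usp2 each time. The evening minus morning value, 0.25, was 0.096 with normexp and quantile normalisation, 0.12 within scan 1, 0.51 within scan 2, 0.091 with the median over members, 0.15 with Nr1d2, Ciart, Npas2 and Clock added, 0.15 against WT replicate 3 alone and 0.16 without Nr1d1 and Cry1, and 0.16 to 0.30 without 1 array. The value over members that passed the filter, chosen after the data were seen, was 0.29. Over all genes the count of 17 lay between 0 and 58 in the alternatives (58 with scan as a block, 45 with an intensity trend, 30 without KO replicate 3, 0 with normexp and quantile normalisation). Replicate numbers were not taken as pairs in the main test. Correlations of same-numbered deviations across genes were -0.40, 0.48 and -0.60 for replicates 1, 2 and 3, with 1 of 3 arrays labelled KO best matched to its own number. Replicate 2 shared scan 1, while replicates 1 and 3 were split between the scans, so these values cannot tell pairing from scan. With a replicate block 0 members and 0 genes passed, 3 members having an unadjusted p under 0.05 (limma), and the evening minus morning value stayed 0.25. Normexp with the 75th percentile moved the median of all genes to 0.14, and no filter to 0.12. Dim probes, Per3 and Nr1d1 here, are limited by background.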
